A study of Mus musculus with 4 samples.

Results

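Axon guidance ligands and their receptors, the ephrins, semaphorins, netrins, and Slits with the Eph receptors, plexins, neuropilins, Dcc, Unc5, and Robo proteins, were followed across 4 lines of mouse neural stem cells (NSCs). Every gene whose symbol belongs to one of these families was taken, whatever its level, which gave 68 of the 27612 genes named in the tables. They comprise 34 ligand genes (8 ephrins, 20 semaphorins, 3 netrins, and 3 Slits) and 34 receptor genes (14 Eph receptors, 9 plexins, 2 neuropilins, 5 netrin receptors, and 4 Robos). The lines were derived from epiblast stem cells (EpiSCs) of the 129/Sv strain and grown with EGF and FGF2, each at 10 ng/ml. XN4 and XN1 were derived with 10 µM XAV939, a tankyrase inhibitor that lowers Wnt signaling through β-catenin, from supplier B for XN4 and from supplier A, which formed crystals in the culture, for XN1. KN1 was derived without an added Wnt modulator, and CN4 with 2 µM CHIR99021, a GSK3 inhibitor that raises that signaling. The study infers that the crystals lowered the effective concentration of XAV939 for XN1. XN1 and KN1 came from 1 derivation series and XN4 and CN4 from another. Each line is 1 line in 1 BD Rhapsody single-cell library, so line, treatment, and library cannot be told apart, and no test between lines was made.

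Axon guidance proteins steer growing axons and migrating cells by attraction or repulsion, and several also act between the progenitors of the neural tube. Ephrins are bound to the membrane, A-type through a lipid anchor and B-type through a transmembrane domain, and signal through Eph receptor tyrosine kinases on the neighboring cell. Secreted class 3 semaphorins signal through neuropilins paired with plexins, and the membrane-bound semaphorins mostly through plexins alone. Netrins attract through Dcc and repel through Unc5 receptors, while Slits repel through Robo receptors.

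The tables hold 3927 cells of XN4, 3905 of XN1, 3975 of KN1, and 3448 of CN4 with 19292007 to 41639370 reads per line. Levels are RPM, the reads of a gene per 1000000 reads of its line pooled over cells, with ribosomal protein and mitochondrial genes left aside. Capture means that a cell held at least 1 read of the gene. Reads are amplified copies and not molecules, and KN1 held 7.39 reads per captured gene against 2.14 to 3.90 in the other lines. Capture shares were therefore taken in cells thinned to 3200 reads, with medians of 767 captured genes per cell in KN1 and 1653 to 1847 in the other lines. A log2 ratio in capture relative to all genes uses -ln(1 - share) in thinned cells, divided by its sum over all genes of the line. It is not the ratio of the shares. As KN1 captured the fewest genes, ratios over KN1 are lower in this measure than the shares give. No cell type was named within a line, so a background share from cells that lack a gene was not set. The XN4 library went against its label in several markers, although the study reports that the line gave neurons, oligodendrocytes, and astrocytes when differentiated. Of 10 neural progenitor markers, 4 were captured in at least 10% of XN4 cells (10 in CN4, 8 in XN1, and 7 in KN1). These 4 were Vim (84.4%), Sox9 (45.0%), Slc1a3 (22.2%), and Notch1 (21.0%). Sox2 was captured in 0.560%, whereas the study's microarrays reported significant Sox2 expression in its NSC lines, XN4 among them. Fabp7 and Hes5 were captured in 0 of 3927 cells. A count of 0 allows a share of cells with a read of up to 0.0764% (3 counts of the total) and sets no limit on cells that express the gene. Of 12 connective tissue markers, 10 were captured in at least 10% of XN4 cells, led by Col3a1 in 97.8%, and the summed level of the list was 9513 RPM in XN4 against 103 to 333 RPM in the other lines. KN1, at 103 RPM, has no value for 6 of the 12. Between 14 and 21 cell barcodes of these tables were shared by any pair of lines, and between 37 and 320 over all cells, and doublets were not removed.

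The 68 genes were captured unevenly. In thinned cells 54 were captured in at least 1% of the cells of some line, 27 in at least 1% of the cells of every line, and 29 in at least 10% of the cells of some line. By line, at least 10% of thinned cells captured 19 of 67 genes with reads in CN4 (28.4%, against 27.4% of all genes with reads there), 17 of 67 in XN4 (25.4%, against 22.3%), 17 of 65 in XN1 (26.2%, against 27.2%), and 11 of 55 in KN1 (20.0%, against 15.6%). The other 14 genes of the 68 stayed under 1% in every line. These were Efna1, Epha1, Epha2, Epha8, Epha10, Sema3g, Sema4a, Sema4f, Sema7a, Plxnb3, Ntn5, Slit1, Robo3, and Robo4. Of these, Plxnb3, Sema7a, and Slit1 passed 1% of cells before thinning in at least 1 line and so entered the counts of genes apart, while the other 11 did not. The KN1 table leaves out 13 of the 68 genes, so these have no value in KN1. Of genes captured in at least 1% of cells elsewhere, it leaves out 3 of 50 axon guidance genes from XN4 (6.41% of all genes), 1 of 47 from CN4 (3.04%), and 0 of 44 from XN1 (3.38%).

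The levels of axon guidance genes spread widely over the lines. Of 53 with a value in all 4 lines and capture in at least 1% of the cells of a line, 39 were at least 4-fold higher in the highest line than in the lowest, or 73.6%, against 34.4% of all 12745 genes compared in this way. Without XN4 the count was 19 of 51, or 37.3%, against 23.4% of all genes, and without KN1 it was 32 of 56, or 57.1%, against 24.3%. XN4 held the highest level of 20 of the 53 genes (26.0% of all genes were highest there) and the lowest of 17 (24.1%). KN1 was highest for 16 (34.0%) and lowest for 14 (33.8%), XN1 highest for 11 (17.8%) and lowest for 14 (26.7%), and CN4 highest for 6 (22.2%) and lowest for 8 (15.3%). By family, the median fold from highest to lowest line was 61.0 over 3 Slits, 18.1 over 2 netrins, 11.6 over 9 plexins, 8.15 over 9 Eph receptors, 7.14 over 5 netrin receptors, 5.54 over 14 semaphorins, 4.58 over 7 ephrins, 10.8 over 2 Robos, and 7.69 over 2 neuropilins. Of 26 ligand genes compared, 19 were at least 4-fold apart, and of 27 receptor genes, 20.

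**Figure D1:**
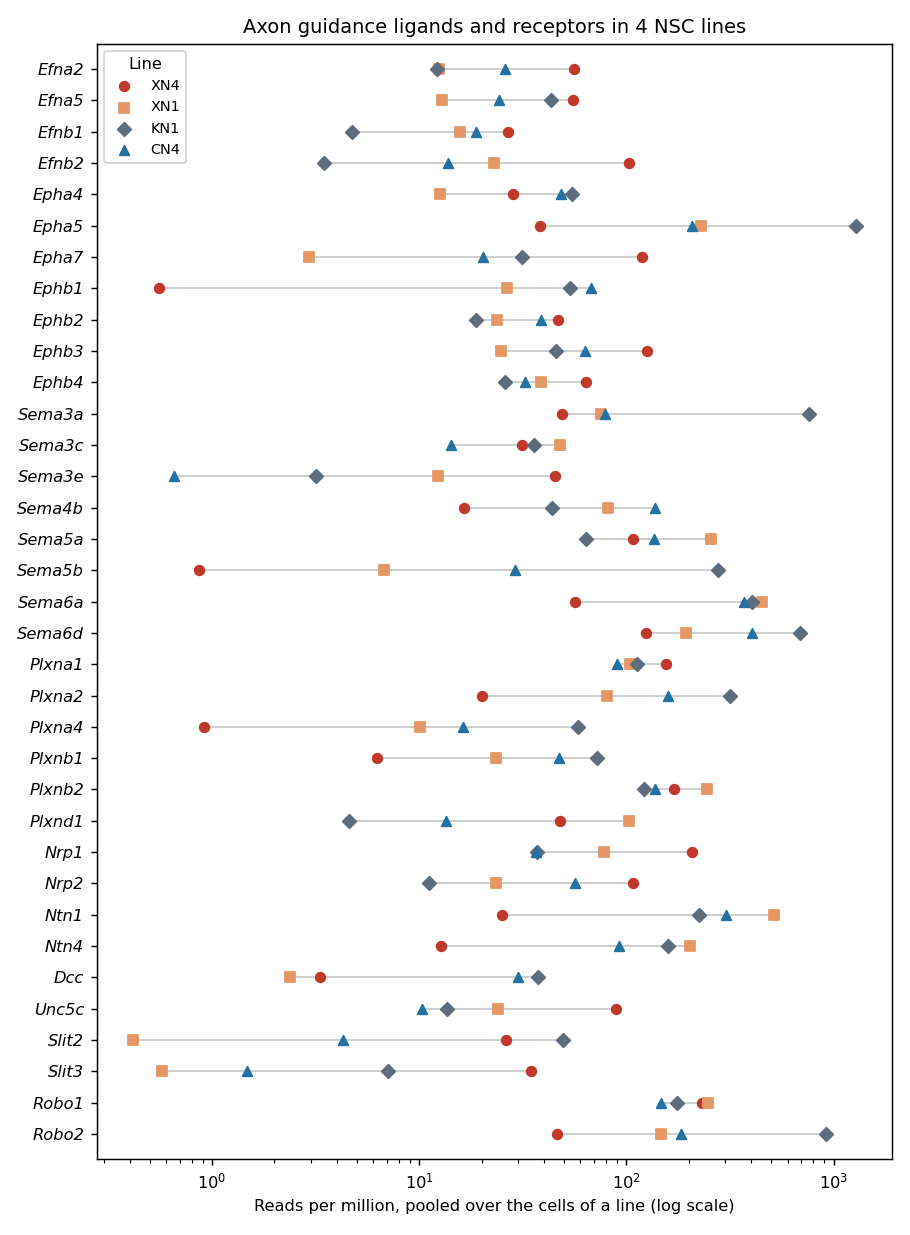
Level of the 35 named axon guidance genes in each line, in RPM pooled over cells on a log axis, with 1 point per line (1 library each) and a gray bar from the lowest to the highest line. XN4 (red circles) sits at the left end for Ntn1, Ntn4, Ephb1, Sema5b, and Plxna4 and at the right end for Efnb2, Epha7, Nrp1, and Slit3, while Robo1 and Plxna1 hardly spread.

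Pairs of lines differed to unequal degrees. Within the derivation series, 16 of 51 axon guidance genes were at least 4-fold apart between XN1 and KN1 (31.4%, against 18.1% of all genes), and 24 of 56 between XN4 and CN4 (42.9%, against 19.0%). The 16 were mostly higher in KN1, where 14 were higher (11.5% of all genes were) and 2 lower (6.61% of all genes were). The 24 were divided, with 10 higher in XN4 (10.2% of all genes were) and 14 higher in CN4 (8.85% of all genes were). Between series, XN4 and XN1 were apart for 24 of 55 (17.7% of all genes were), with 13 higher in XN4 (9.50%) and 11 higher in XN1 (8.16%). XN4 and KN1 were apart for 26 of 51 (19.0% of all genes were), with 11 higher in XN4 (7.87%) and 15 higher in KN1 (11.2%). CN4 and KN1 were apart for 12 of 50 (14.0% of all genes were), with 2 higher in CN4 (4.93%) and 10 higher in KN1 (9.11%). The smallest count, 6 of 48 (7.17% of all genes were), was that of XN1 and CN4, with 2 higher in XN1 (3.59%) and 4 higher in CN4 (3.59%). These comparisons share libraries, and the shares of all genes, here and over all 4 lines, are not matched for gene span. Ratios over KN1 varied with span, as given below. Scaling by the median of ratios raised the log2 ratios over KN1. The values subtracted from them were -0.41 for XN1, -0.30 for CN4, and -0.32 for XN4. The 14 genes higher and 2 lower in KN1 than in XN1 then became 13 and 6 (8.59% and 11.3% of all genes). The 10 higher and 2 lower in KN1 than in CN4 became 8 and 5 (7.02% and 7.86%), and the 15 higher and 11 lower in KN1 than in XN4 became 15 and 15 (9.36% and 10.6%).

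**Figure D2:**
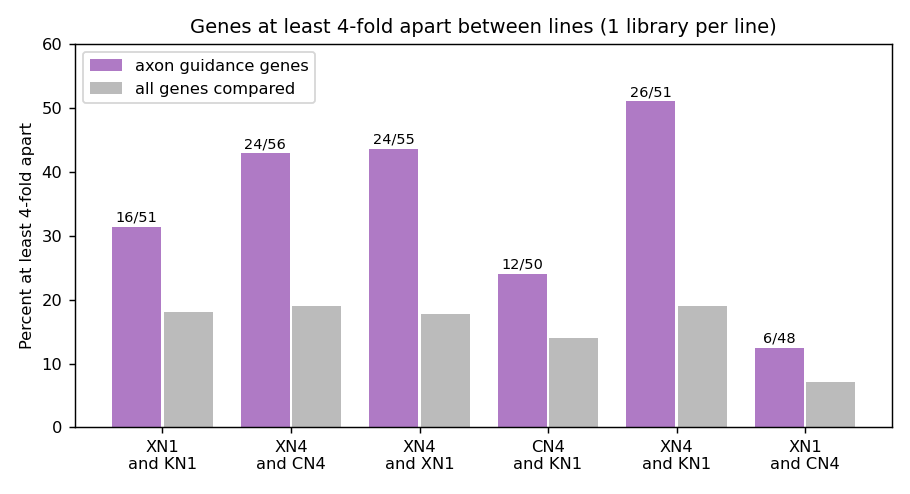
Percent of axon guidance genes (purple, with counts) and of all genes compared (gray) that were at least 4-fold apart, for the 6 pairs of lines with 1 library per line. The purple bar is the taller in every pair, reaches 51.0% for XN4 and KN1, and is lowest at 12.5% for XN1 and CN4. The gray shares are not matched for gene span.

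Promoter sequence is shown for 1 gene per line, the axon guidance gene highest in that line with the largest ratio to the next line among those captured in at least 10% of its thinned cells, with a RefSeq start within 30 bases of the annotated start. These are Efnb2 in XN4 (4.48-fold above XN1, with a log2 ratio of 1.92 as a mean over cells), Plxnd1 in XN1 (2.15-fold above XN4), Epha5 in KN1 (5.63-fold above XN1), and Sema4b in CN4 (1.70-fold above XN1). Each run is the 250 bases before the RefSeq start in GRCm38.p6, 5′ to 3′ on the strand of the gene, at chr8:8661243-8661492 for Efnb2 (minus strand), chr6:115995006-115995255 for Plxnd1 (minus strand), chr5:84417383-84417632 for Epha5 (minus strand), and chr7:80186620-80186869 for Sema4b (plus strand). Capitals mark GGGCGG or its reverse complement CCGCCC, the letters of a GC box.
Efnb2: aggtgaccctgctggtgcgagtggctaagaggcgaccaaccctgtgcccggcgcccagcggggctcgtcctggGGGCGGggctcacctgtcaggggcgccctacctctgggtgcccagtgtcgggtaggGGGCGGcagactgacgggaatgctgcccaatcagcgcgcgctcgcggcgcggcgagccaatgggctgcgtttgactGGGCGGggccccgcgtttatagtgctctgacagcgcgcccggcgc
Plxnd1: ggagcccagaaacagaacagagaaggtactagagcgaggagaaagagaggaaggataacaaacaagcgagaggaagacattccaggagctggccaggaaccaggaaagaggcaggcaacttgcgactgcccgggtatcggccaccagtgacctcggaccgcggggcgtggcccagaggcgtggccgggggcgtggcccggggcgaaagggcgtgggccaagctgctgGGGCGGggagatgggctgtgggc
Epha5: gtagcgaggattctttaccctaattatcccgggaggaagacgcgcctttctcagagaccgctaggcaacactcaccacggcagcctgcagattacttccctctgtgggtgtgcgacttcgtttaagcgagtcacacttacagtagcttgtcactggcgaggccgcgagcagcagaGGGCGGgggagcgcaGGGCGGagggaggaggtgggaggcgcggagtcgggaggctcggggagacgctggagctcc
Sema4b: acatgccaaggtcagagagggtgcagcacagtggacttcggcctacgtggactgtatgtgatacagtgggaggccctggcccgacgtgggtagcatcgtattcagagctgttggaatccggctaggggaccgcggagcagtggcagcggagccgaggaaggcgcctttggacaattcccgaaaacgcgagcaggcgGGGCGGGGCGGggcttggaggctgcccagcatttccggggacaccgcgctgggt
Efnb2 held 3 such matches, Epha5 2, Plxnd1 1, and Sema4b 2 that overlap. Over the 58 axon guidance genes with a RefSeq window, 42 held the letters, or 72.4%, against 32.7% of 32851 windows of all genes. Each of the 58 had 1 window, the nearest to its annotated start, while the 32851 were taken without such a choice. The 2 sets are thus not built alike. The 58 windows were also richer in G and C, with a median of 64.8% against 52.4%, and held a median of 16 CG dinucleotides against 6. CTTTGA or TCAAAG, the core letters bound by TCF/LEF factors of the Wnt pathway, stood in 4 of the 58 windows (Epha2, Nrp2, Robo4, and Sema3e), or 6.90%, against 13.8% of all windows, and in none of the 4 printed.

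Ephrins were mostly highest in XN4 and lowest in KN1. Of the 7 ephrins compared in all 4 lines, 5 were highest in XN4 (26.0% of all genes were) and 2 in CN4 (22.2%), 5 were lowest in KN1 (33.8%), and 5 were at least 4-fold apart between their highest and lowest lines (34.4%). The widest was Efnb2, the ephrin that marks arterial endothelium, whose gene spans chr8:8617434-8661242. Its level was 103 RPM in XN4, 23.0 in XN1, 13.8 in CN4, and 3.48 in KN1, and it was captured in 19.8%, 6.19%, 3.54%, and 0.412% of thinned cells. XN4 was 29.5-fold above KN1, with a 95% interval of 24.1 to 36.5, and XN1 was 6.59-fold above KN1 (5.28 to 8.31). These intervals cover counting error only and take each read as independent. Reads are amplified copies, and the 96 reads of KN1 came from 20 cells, so the intervals are too narrow. Without dividing cells the log2 ratio of XN1 over KN1 was 3.45 in place of 2.72.

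The A-type ephrins spread less. Efna5, a repellent that patterns retinal and cortical maps, was at 55.2 RPM in XN4, 43.2 in KN1, 24.2 in CN4, and 12.9 in XN1. More thinned cells of CN4 (6.39%) than of KN1 (3.83%) captured Efna5. Efna2, its close relative, was at 55.7 RPM in XN4, 26.0 in CN4, 12.4 in XN1, and 12.2 in KN1. In reads the XN1 and KN1 levels of Efna2 could not be separated, with a ratio of 1.02 (0.864 to 1.21), although 3.83% of thinned XN1 cells captured it (3.19 to 4.56) against 1.53% of KN1 (1.15 to 2.00). Efnb1, the X-linked ephrin of cell sorting at tissue borders, was at 26.8 RPM in XN4, 18.8 in CN4, 15.8 in XN1, and 4.72 in KN1, so that only KN1 stood apart from the other lines by more than 3-fold.

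Semaphorins did not share a leading line. Of the 14 compared in all 4 lines, XN4 held the highest level of 5 (26.0% of all genes were highest there), XN1 of 5 (17.8%), KN1 of 3 (34.0%), and CN4 of 1 (22.2%), and 9 were at least 4-fold apart (34.4%). Among the secreted class 3 genes, Sema3a, a repellent that signals through Nrp1, was highest in KN1 at 759 RPM, against 79.1 in CN4, 75.7 in XN1, and 48.9 in XN4. It was captured in 41.5% of thinned KN1 cells and in 19.2%, 18.1%, and 9.12% of those of CN4, XN1, and XN4. CN4 and XN1 could not be separated (0.957 for XN1 over CN4, 0.893 to 1.03), so the spread of Sema3a lay in KN1 and, to a lesser degree, XN4.

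Sema3e, which binds Plxnd1 without a neuropilin, ran the other way. XN4 held 45.4 RPM, XN1 12.3, KN1 3.16, and CN4 0.653, which was 15 reads in all. XN4 was 69.5-fold above CN4 (42.0 to 124, log2 6.12, and 5.50 over all cells), the largest difference toward XN4 within a derivation series among the named genes. Sema3c, a class 3 semaphorin that also attracts, was at 47.6 RPM in XN1, 35.7 in KN1, 31.5 in XN4, and 14.3 in CN4. These genes lie near each other on chromosome 5, in the order Sema3d (from 12383385), Sema3a (from 13125414), Sema3e (from 14025276), and Sema3c (from 17574281), and their highest lines were XN1, KN1, XN4, and XN1, so neighbors did not share a pattern.

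Among the membrane-bound semaphorins, Sema6a and Sema6d of class 6 were lowest in XN4. Sema6a, a ligand of Plxna2 and Plxna4 that can also act as a receptor, was at 452 RPM in XN1, 404 in KN1, 370 in CN4, and 56.2 in XN4. It was captured in 68.6% of thinned XN1 cells, 59.8% of CN4, 27.7% of KN1, and 11.5% of XN4. XN1, KN1, and CN4 thus lay within 1.22-fold of each other in level and XN4 was 6.58-fold below CN4. Sema6d, a ligand of Plxna1, was at 692 RPM in KN1, 403 in CN4, 194 in XN1, and 124 in XN4, yet more thinned cells of CN4 (60.5%) than of KN1 (35.5%) had a read, so the order of KN1 and CN4 depended on whether reads or cells were counted.

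The class 5 genes, transmembrane semaphorins with thrombospondin repeats, differed in opposite directions between XN1 and KN1, and both were lower in XN4 than in CN4. Sema5b was at 277 RPM in KN1, 29.1 in CN4, 6.79 in XN1, and 0.865 in XN4, which made it the axon guidance gene with the largest range, 320-fold between KN1 and XN4. It was captured in 22.0% of thinned KN1 cells, 7.41% of CN4, 1.85% of XN1, and 0.177% of XN4. KN1 was 40.8-fold above XN1 and CN4 33.6-fold above XN4, so the XN line was the lower in both derivation series. KN1 had no Wnt modulator and CN4 had CHIR99021, so the series do not repeat 1 comparison. Slit2, Slit3, and Epha7 went opposite ways in the series. For Slit2 the log2 ratio was -6.90 for XN1 over KN1 and 2.62 for XN4 over CN4. Sema5a was at 255 RPM in XN1, 136 in CN4, 108 in XN4, and 63.8 in KN1, with XN1 3.79 to 4.22 times KN1 and XN4 0.757 to 0.829 times CN4. Sema4b, a class 4 gene, was at 138 RPM in CN4, 81.3 in XN1, 43.7 in KN1, and 16.5 in XN4, and was captured in 29.7%, 21.1%, 4.71%, and 3.66% of thinned cells.

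Netrins set XN4 apart from the other lines. Ntn1, the laminin-related attractant secreted by the floor plate and ventricular zone progenitors, was at 515 RPM in XN1, 302 in CN4, 225 in KN1, and 25.2 in XN4. Capture stood at 80.3% over all 14452 cells of XN1, 64.3% over those of CN4, 22.0% in KN1, and 11.4% in XN4, and after thinning at 71.5%, 47.1%, 19.4%, and 5.17%. XN4 was 12.0-fold below CN4 and 20.4-fold below XN1, the other line derived with XAV939. Ntn4, a netrin that binds laminin in basement membranes, was at 203 RPM in XN1, 159 in KN1, 91.8 in CN4, and 12.8 in XN4. Without XN4 the range fell to 2.28-fold for Ntn1 and 2.21-fold for Ntn4. Connective tissue markers were high in the same library, and their part in the netrin difference was not tested.

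Slit2 and Slit3 were lowest in XN1, and Slit1 stayed under 1% of thinned cells in every line. Slit2, a midline repellent, was at 49.5 RPM in KN1, 26.3 in XN4, 4.27 in CN4, and 0.415 in XN1, where it had 8 reads. KN1 was 119-fold above XN1, with counting limits for XN1 over KN1 of 0.00361 to 0.0166. The log2 ratio was -6.90 in reads and -6.27 in capture relative to all genes, which is farther from 0 than the shares alone give. Slit3, its relative, was at 34.8 RPM in XN4, 7.04 in KN1, 1.48 in CN4, and 0.570 in XN1, where it had 11 reads. Both were captured in under 0.2% of thinned XN1 cells, at 0.160% and 0.192%, and in 4.25% and 7.73% of thinned XN4 cells, so the XAV939 lines lay far apart for both genes.

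Eph receptors showed opposite ends of the range. By reads, of the 9 compared in all 4 lines, 7 were at least 4-fold apart (34.4% of all genes were), 4 were highest in KN1 (34.0%), and 4 in XN4 (26.0%). Epha5, an A-type receptor of ephrin-A ligands in forebrain maps, was at 1288 RPM in KN1, 229 in XN1, 208 in CN4, and 38.4 in XN4. It was captured in 57.6%, 44.5%, 36.7%, and 5.90% of thinned cells. The log2 ratio of XN1 over KN1 was -2.49 in reads and -1.97 in capture relative to all genes, although the shares of 44.5% and 57.6% lay closer. Epha7, a receptor that also marks cell clusters of the cortex, ran toward XN4 with 119 RPM, against 31.3 in KN1, 20.4 in CN4, and 2.95 in XN1, and was captured in 22.3%, 2.71%, 5.25%, and 0.894% of thinned cells. XN4 was 40.1-fold above XN1 for Epha7 (30.9 to 53.1). Epha4, which binds ephrins of both types, was at 54.6 RPM in KN1, 48.5 in CN4, 28.2 in XN4, and 12.6 in XN1. In thinned cells Epha4 was captured in 11.8% of CN4, 6.26% of XN4, 5.09% of KN1, and 3.35% of XN1. KN1 was thus the highest for Epha4 by reads and not by cells.

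The B-type receptors were divided in XN4. Ephb3, a receptor of intestinal crypts and corpus callosum axons, was at 126 RPM in XN4, 62.8 in CN4, 45.5 in KN1, and 24.8 in XN1. More thinned cells of XN1 (6.77%) than of KN1 (4.77%) captured Ephb3. Ephb4, the receptor of Efnb2 in veins, was at 64.1 RPM in XN4, 38.8 in XN1, 32.5 in CN4, and 26.0 in KN1. Ephb2, a receptor of B-type ephrins on axons and synapses, was at 46.9 RPM in XN4, 38.5 in CN4, 23.8 in XN1, and 18.8 in KN1. All 3 were highest in XN4, while Ephb1, which directs retinal axons at the chiasm, was nearly missing there. Ephb1 was at 67.6 RPM in CN4, 53.4 in KN1, 26.4 in XN1, and 0.552 in XN4, which is 23 reads. More thinned cells of XN1 (6.96%) than of KN1 (5.21%) captured Ephb1. CN4 was 122-fold above XN4 in reads (log2 of XN4 over CN4 -6.93, and -6.07 in capture relative to all genes). Of the 68 genes, 41 overlap another annotated gene, so their reads cannot be fully assigned. Slit2 and Robo2 overlap 6 and 5 genes on their own strand. A coding gene overlaps 5 of the 68, with Ephb1 (9630041A04Rik) and Ephb4 (Zan) among the named genes. Use of strand in counting is not given in the sources used here.

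XN4 held the lowest level of 5 of the 9 plexins (24.1% of all genes were lowest there). Plxna2, the receptor of Sema6a, was at 317 RPM in KN1, 158 in CN4, 80.8 in XN1, and 20.0 in XN4. Plxna4, which binds Sema6a and partners neuropilins, was at 58.3 RPM in KN1, 16.3 in CN4, 10.1 in XN1, and 0.913 in XN4. Plxnb1, a receptor of Sema4d, was at 72.1 RPM in KN1, 47.2 in CN4, 23.5 in XN1, and 6.22 in XN4. In reads all 3 followed the order KN1, CN4, XN1, XN4, as did Sema5b, Sema6d, and Robo2. In thinned cells CN4 lay above KN1 for Plxna2 (32.2% and 23.1%) and Plxnb1 (13.1% and 8.13%), as for Sema6d.

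Other plexins did not follow it. Plxnd1, the receptor of Sema3e, was at 103 RPM in XN1, 47.9 in XN4, 13.5 in CN4, and 4.57 in KN1, and was captured in 23.9%, 11.1%, 3.83%, and 0.471% of thinned cells. XN1 was 22.6-fold above KN1 (18.8 to 27.2), and XN4 was 3.56-fold above CN4 (3.16 to 4.03). The XN line was thus the higher in both series, by over 4-fold in the former, although KN1 and CN4 differ in treatment. Plxna1, the partner of Nrp1, ranged 1.74-fold, from 156 RPM in XN4 to 90.1 in CN4. Plxnb2, a receptor of class 4 semaphorins in progenitors, ranged 1.99-fold, from 244 RPM in XN1 to 122 in KN1. These receptors were captured in 9.66% to 30.0% and 14.4% to 49.6% of thinned cells of each line.

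Both neuropilins, coreceptors of class 3 semaphorins and of VEGF, were highest in XN4. Nrp1 reached 208 RPM in XN4 and 77.8 in XN1, with 37.0 in KN1 and 36.8 in CN4, and was captured in 36.7%, 18.7%, 3.56%, and 8.77% of thinned cells. Nrp2 was at 108 RPM in XN4, 56.8 in CN4, 23.4 in XN1, and 11.1 in KN1, and was captured in 17.8%, 10.8%, 6.23%, and 1.33%. In reads KN1 and CN4 could not be separated for Nrp1 (0.996 for CN4 over KN1, 0.909 to 1.09), although more thinned CN4 cells captured it. For Nrp2, CN4 was 5.12-fold above KN1 (log2 2.36 in reads and 1.66 in capture relative to all genes). The shares of 10.8% and 1.33% lay farther apart than this last value. Without XN4 the range of Nrp1 was 2.11-fold and that of Nrp2 5.12-fold.

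The netrin receptors Dcc and Unc5c differed in opposite directions between XN4 and CN4. Dcc, the receptor for attraction to netrin, was at 37.3 RPM in KN1, 30.0 in CN4, 3.31 in XN4, and 2.38 in XN1, and was captured in 0.702% to 4.46% of thinned cells. The ratio of XN4 to XN1 was 1.39 (0.989 to 1.99), so the XAV939 lines could not be separated in reads, although XN1 had the lowest capture share. In reads both lay below the other line of their series, by 15.6-fold in XN1 and by 9.07-fold in XN4. For XN4 and CN4 the difference of Dcc was under 4-fold in capture relative to all genes, with a log2 ratio of -1.49 against -3.18 in reads. Unc5c, a receptor for repulsion, reached 88.7 RPM in XN4 and 24.1 in XN1, with 13.6 in KN1 and 10.3 in CN4, and was captured in 17.2% of thinned XN4 cells.

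Robo1 and Robo2, repulsive Slit receptors that lie near each other on chromosome 16 (chr16:72308306-73046095 and chr16:73891839-74411825), differed in their range. Robo1 was at 247 RPM in XN1, 233 in XN4, 176 in KN1, and 147 in CN4, a range of 1.68-fold. Robo2 was at 920 RPM in KN1, 183 in CN4, 147 in XN1, and 46.1 in XN4, a range of 20.0-fold. Robo1 was captured in 40.7% and Robo2 in 8.88% of thinned XN4 cells, against 33.2% and 36.0% in CN4. Capture of Robo1 spread more than its level, with 47.4% of thinned XN1 cells. In KN1 it was captured in 14.7% of dividing and 13.9% of other thinned cells.

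Because the XN4 library went against its label, the ranges were also taken over XN1, KN1, and CN4 alone. Sema5b then ranged 40.8-fold in place of 320, Slit2 119-fold as before, Plxnd1 22.6-fold as before, and Sema3e 18.8-fold in place of 69.5. These genes still differed by over 4-fold, as did Slit3 (12.3-fold, with log2 of XN1 over KN1 at -3.63 in reads, -2.94 as a mean over cells, and -4.41 in capture), Epha7 (10.6-fold), Efnb2 (6.59-fold), Robo2 (6.24-fold), and Epha5 (6.20-fold). By contrast, Ephb1 fell from 122-fold to 2.56-fold, Sema6a from 8.04-fold to 1.22-fold, Unc5c from 8.63-fold to 2.34-fold, and Sema4b from 8.39-fold to 3.16-fold, so their 4-fold spread rested on XN4. Connective tissue markers, 10 of 12 of which were captured in at least 10% of XN4 cells against 4 of 12 or fewer elsewhere (6 without a value in KN1), moved with these differences, and their part in them was not tested.

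Genes that were higher in KN1 than in XN1 or CN4 were mostly long. Gene span, the distance from start to end with introns, was 4.64 to 1097 kb over the 68 genes with a median of 51.5 kb. Of 18 axon guidance genes of 200 kb and over, 10 were at least 4-fold higher in KN1 than in XN1 (55.6%), against 52.3% of all 923 coding genes of that span. Of 18 under 50 kb, none was higher in KN1 by 4-fold (3.93% of all 7610 coding genes were), and of 15 from 50 to 200 kb, 4 were (26.7%, against 13.3% of all genes). Against CN4, 8 of 17 long axon guidance genes were higher in KN1 (47.1%, against 46.3% of all long genes), and against XN4, 7 of 18 (38.9%, against 40.8%). The counts of long axon guidance genes were thus near those of all long genes. The 51 axon guidance genes compared between XN1 and KN1 had a median span of 145 kb, against 28.9 kb over all coding genes compared.

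The relation to span was seen in each comparison with KN1 and was weak in the others. Spearman's rho of span and the log2 ratio of XN1 over KN1 was -0.44 over 51 axon guidance genes (Pearson's r with log span -0.45) and -0.40 over 11495 coding genes. For CN4 over KN1 it was -0.59 and -0.43, and for XN4 over KN1 -0.40 and -0.33. For XN4 over CN4 it was -0.06 over 56 axon guidance genes and 0.02 over all genes, for XN1 over CN4 0.00 and -0.06, and for XN4 over XN1 -0.13 and 0.06. These correlations are across genes, which share a library and are not replicates. Counted as capture in thinned cells instead of reads, the values for XN1 over KN1 were -0.42 and -0.37. Reads in introns were counted in XN4, XN1, and CN4, and the setting for KN1 is not given in the sources used here. Among the genes at least 4-fold higher in KN1 than in XN1, Sema5b (124 kb), Slit1 (143 kb), Epha4 (148 kb), and Epha7 (154 kb) were shorter than 200 kb. The longer ones included Sema3a (477 kb), Epha5 (363 kb), Robo2 (520 kb), Slit2 (325 kb), and Dcc (1097 kb).

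**Figure D3:**
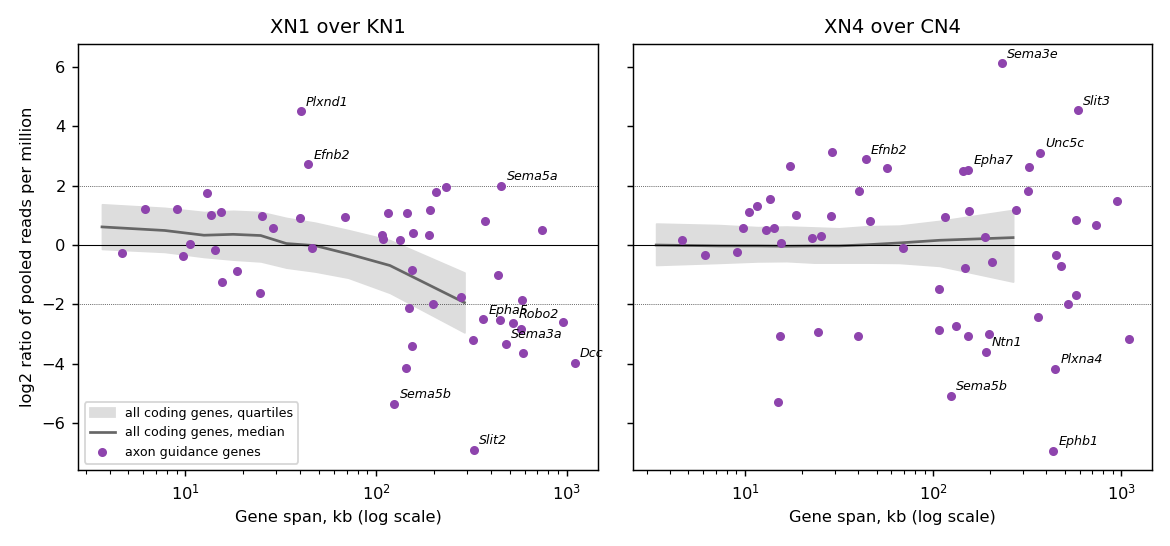
Log2 ratio of pooled RPM against gene span in kb (log axis) for XN1 over KN1 (left) and XN4 over CN4 (right), with axon guidance genes as purple points and all coding genes as the median and quartiles of 10 groups of like span. On the left the gray median falls below 0 for long genes and most long axon guidance genes fall with it, while Sema5b and Slit2 lie under it and Plxnd1 above. On the right the gray median stays near 0.

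Ligand and receptor were mostly captured in the same cell about as often as their separate shares gave. For 36 pairs known to bind or to form a complex, the number of cells with both was divided by the number expected from each alone within 20 strata of cells of like depth, wherever at least 50 cells were expected, over all cells of XN4, XN1, and CN4 and the 3975 of KN1. The median ratio was 1.03 over 31 pairs in CN4, 1.00 over 30 in XN4, 1.03 over 24 in XN1, and 1.00 over 8 in KN1. Without the strata the medians rose to between 1.10 in XN1 and 1.23 in XN4. Intervals lay above 1 for 7 pairs in CN4, 4 in XN4, 1 in XN1, and 0 in KN1, and below 1 for 1 pair in CN4 and 2 in XN4. They are not adjusted for the number of pairs.

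In XN4 the highest ratios were those of Sema3f and Nrp2, a repellent and its coreceptor, at 1.43 (1.23 to 1.66), and of Ntn1 and Unc5b at 1.41 (1.23 to 1.61), where 217 cells had both and 154 were expected. Ntn1 and Unc5c went the other way in the same cells, at 0.796 (0.699 to 0.903). In CN4 the values of these netrin pairs were 0.969 (0.916 to 1.02) and 1.11 (1.03 to 1.20), so Unc5c and not Unc5b lay above expectation there. Ntn1 and Dcc were captured together less often than expected in CN4, at 0.852 (0.792 to 0.916), with 738 cells against 866.

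Nrp1 and Plxnd1, which form a receptor complex, were captured together in 389 cells of CN4 against 320 expected, a ratio of 1.21 (1.10 to 1.34), and in 1409 cells of XN1 against 1259 expected. In XN4 the pair was at 1.03 (0.972 to 1.08), with 1319 cells against 1285. The ligand and receptor Efna5 and Epha4 were at 1.19 in CN4 (1.09 to 1.28) and 1.17 in XN4 (1.04 to 1.31). Sema6a and Plxna2, by contrast, were captured together in 7342 cells of CN4 against 7241 expected, a ratio of 1.01 (0.991 to 1.04). Cells of 1 library share their source, so these ratios describe single libraries.

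**Figure D4:**
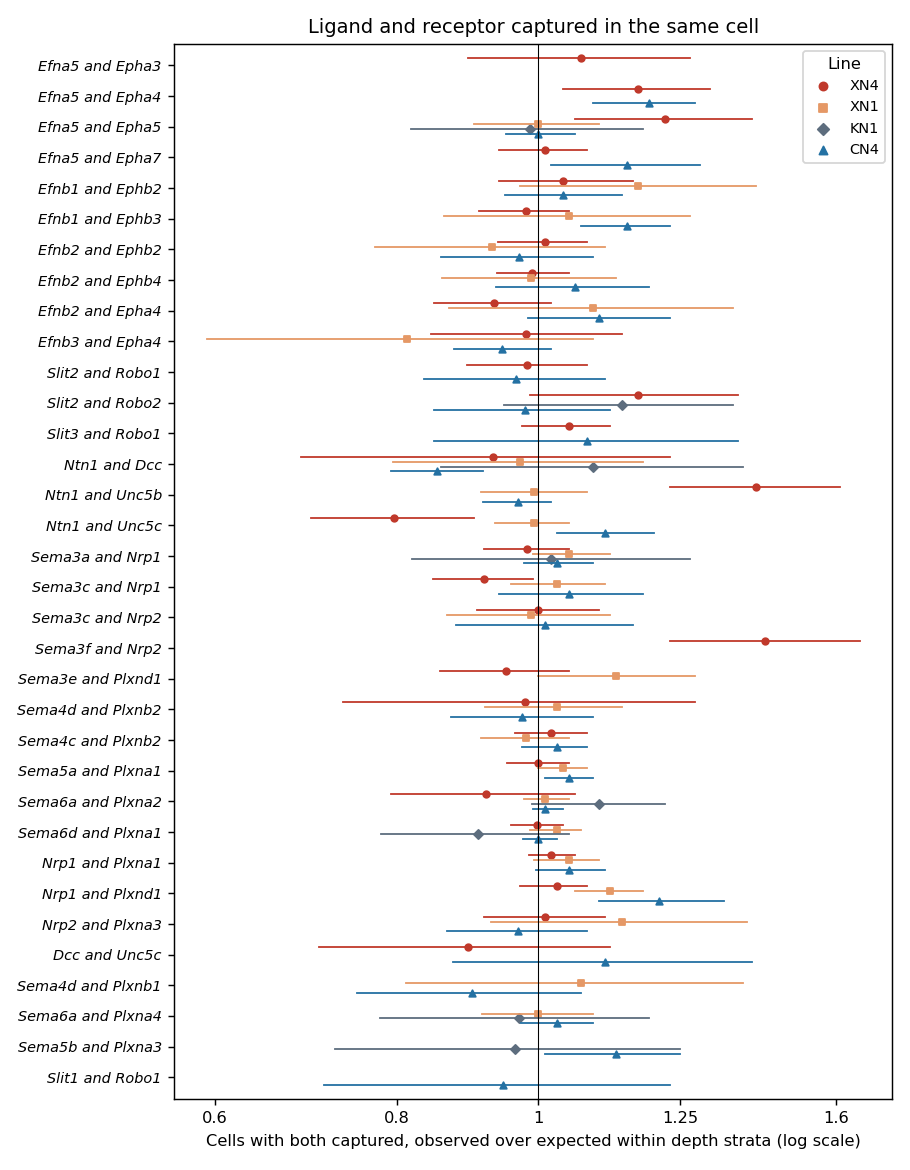
Observed over expected number of cells with both genes of a pair (log axis), within strata of like depth, for each line with at least 50 expected cells, with exact 95% counting intervals. Most intervals cross 1, and those of Sema3f and Nrp2 and of Ntn1 and Unc5b in XN4 lie farthest to the right.

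Dividing cells captured several of these transcripts less often than the other cells of their line. Cells were thinned, and those with thinned reads of at least 2 of Hmgb2, Mki67, and Top2a were called dividing. Of the axon guidance genes captured in at least 5% of the cells of a line, 12 of 29 were captured more often in dividing cells of XN4 (55.1% of all genes were), 10 of 26 in XN1 (51.5% of all genes), 9 of 31 in CN4 (48.0% of all genes), and 15 of 16 in KN1 (88.4% of all genes). The KN1 share was near its background. In cells as deposited, without thinning, the counts were 34 of 39 in XN4 (96.7% of all genes were), 22 of 32 in XN1 (77.0%), 29 of 38 in CN4 (84.6%), and 24 of 24 in KN1 (99.6%). There the dividing cells were also called on all reads, which gave 2113 in CN4 against 1741 after thinning.

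Robo1, Robo2, and Sema6a were lower in the dividing cells of XN4, XN1, and CN4 alike, with intervals that did not overlap. Robo1 was captured in 35.9% of dividing and 42.0% of other cells in XN4, 41.6% and 49.4% in XN1, and 30.3% and 36.8% in CN4. Sema6a was captured in 7.74% and 12.6% in XN4, 57.6% and 72.4% in XN1, and 56.3% and 64.1% in CN4. Robo2 was captured in 5.03% and 9.95% in XN4, 26.7% and 34.1% in XN1, and 32.9% and 40.0% in CN4. In KN1 Sema6a was the higher in dividing cells, at 33.2% and 25.8%, like most genes of that line, while the intervals of Robo1 (14.7% and 13.9%) and Robo2 (47.0% and 45.0%) overlapped.

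The widest gap in XN4 was that of Nrp1, captured in 27.2% of dividing (24.0 to 30.5) and 39.3% of other cells (37.5 to 41.2). In XN1 the shares were 17.9% and 19.0% and in CN4 9.13% and 8.32%, with intervals that overlapped. Ephb3 was the higher in dividing cells, at 9.26% and 5.92% in XN1 and 17.1% and 13.3% in CN4, while in XN4 the intervals of 28.8% and 27.4% overlapped. Unc5c was the higher in dividing XN4 cells, at 20.8% and 16.2%.

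**Figure D5:**
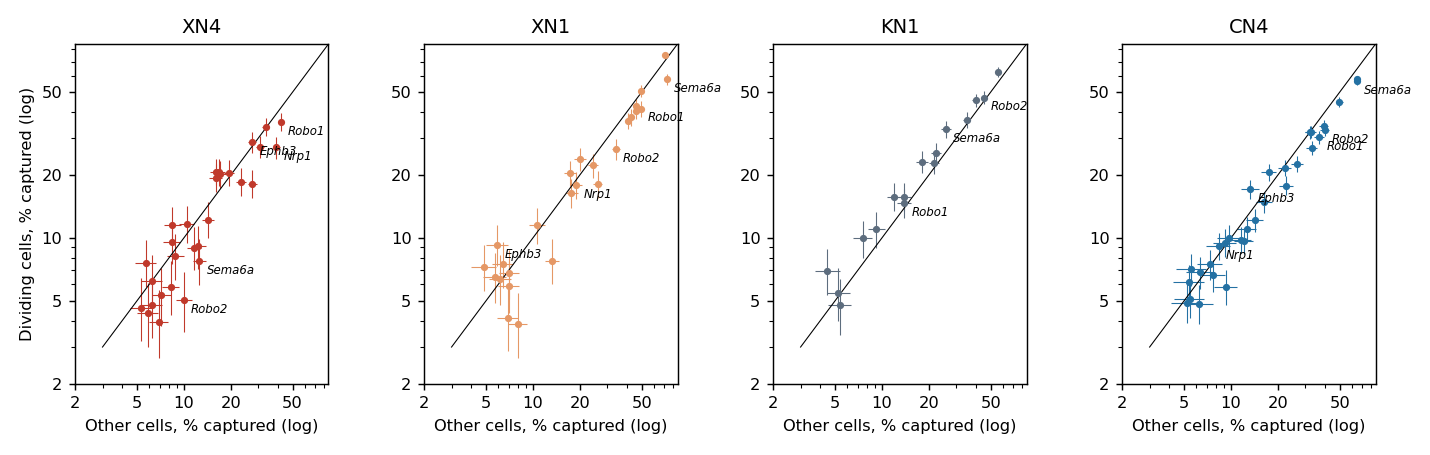
Percent of dividing cells (vertical) and other cells (horizontal) in which each axon guidance gene was captured after thinning, on log axes, 1 panel per line, with exact 95% intervals and the line of equality. Robo1, Robo2, and Sema6a lie under the line in XN4, XN1, and CN4, and nearly all points lie above it in KN1.

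Other genes of the same pathways gave a partly different picture. Of 21 adhesion molecules and coreceptors listed for this purpose, 17 were compared between XN4 and CN4, where 7 were at least 4-fold lower in XN4 (8.85% of all genes were) and 1 higher (10.2%), with a median log2 ratio of -1.77 against 0.04 for all genes. Between XN1 and KN1, 3 of 15 were higher (6.61% of all genes were) and 3 lower (11.5%) in XN1. Of 49 signal transducers, 6 of 48 were lower and 2 higher in XN4 than in CN4 (8.85% and 10.2% of all genes), with a median of 0.13. In XN1, 7 of 48 were lower and 2 higher than in KN1 (11.5% and 6.61% of all genes), with a median of -0.65 against -0.01 for all genes, and in XN4, 11 were lower and 3 higher than in KN1 (11.2% and 7.87% of all genes).

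The widest of these genes were all lowest in XN4. Chl1, an adhesion molecule of the L1 family, was at 476 RPM in CN4, 156 in XN1, 37.1 in KN1, and 1.01 in XN4. Cntn1, a contactin, was at 252 RPM in CN4, 21.3 in XN1, 10.8 in KN1, and 2.47 in XN4. Dscam, which can bind netrin, was at 401 RPM in KN1, 13.7 in CN4, 6.53 in XN1, and 0.937 in XN4. Dpysl4 and Dpysl5, collapsin response mediators that act after semaphorin receptors, were at 0.144 and 0.288 RPM in XN4 against 16.8 and 15.2 RPM in CN4. The summed level of 10 neuron markers was 18.1 RPM in XN4 against 689 to 1815 RPM in the other lines. Most of the sum was Map2 (12.0 RPM in XN4 and 605 to 1588 RPM elsewhere), and Syt1, Rbfox3, and Stmn2 were lower in XN1 than in XN4. The part of neuron markers in these differences was not tested.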

How the data were processed

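Single-cell transcripts of 4 lines were measured with BD Rhapsody. The authors deposited raw read counts per gene and cell for XN4, XN1, and CN4, made with the BD Rhapsody WTA pipeline 1.12.1 on GRCm38 with GENCODE M19, reads in introns included. They also deposited natural log values for each line, ln(1 + 10000 × reads / total), made with Seurat 4.3.0 per the labels and lacking ribosomal protein and mitochondrial genes; KN1 has these alone. Whole reads were recovered from them for 100% of values within 0.01. Reads were pooled over the cells of the normalized tables. A gene was compared if captured in at least 1% of the cells of either line, a difference of 4-fold was called, and a level under 3 reads was set to 3 reads. Intervals are 95% (exact Poisson or Clopper-Pearson binomial) and cover counting error only. Those of ratios of reads take each amplified read as independent and so are too narrow. Thinning to 3200 reads left out 288 to 773 cells per line. No doublet caller was run. Positions are from GENCODE M21 (GRCm38), and promoters from RefSeq (GRCm38.p6) for 58 of the 68 genes. The 35 named genes were captured in at least 10% of thinned cells of a line or had 1 of the 2 largest ranges of their family, and 5 other pathway genes had the largest folds. Sema3d, Sema3f, and Unc5b were singled out after their values were seen. The genes, lists, pairs, and rules were chosen with earlier results of these data known. Alternatives changed the scaling, filter, threshold, cells, and definition of capture. The calls, intervals, and strata were checked on simulated data. Python 3.11.15, numpy 2.4.6, scipy 1.17.1, pandas 2.3.3, and matplotlib 3.10.9 were used.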

Additional observations from a re-analysis of the deposited data

How the results depend on the processing

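The ratios of axon guidance genes at 4-fold or more, 108 where a setting could give them all, were recomputed 697 times over 7 settings. Direction was kept each time, and the ratio stayed at least 4-fold 674 times. All settings reuse the same libraries, so these counts are no measure of repeatability. The scaling settings move every ratio of a pair by 1 constant well under 4-fold, so they could not reverse a direction. Of 103 recomputed from capture in thinned cells relative to all genes, a setting added after seeing the data, 8 fell under 4-fold. This count does not hold for the shares themselves, which can lie closer for genes higher in KN1. Epha5 was captured in 44.5% of thinned XN1 and 57.6% of thinned KN1 cells. At a 2-fold threshold the genes apart were 33 of 51 for XN1 and KN1 (47.8% of all genes), 38 of 55 for XN4 and XN1 (35.0%), 24 of 50 for CN4 and KN1 (42.5%), 21 of 48 for XN1 and CN4 (19.2%), 36 of 56 for XN4 and CN4 (36.4%), and 37 of 51 for XN4 and KN1 (44.6%). Over all lines the count at 4-fold was 39, and 19 without the XN4 library, an alternative added after seeing the data. Over all cells (18157 of CN4, 8741 of XN4, 14452 of XN1, and 3975 of KN1), the axon guidance genes captured in at least 10% were 30 of 68 in CN4 (32.7% of all genes with reads there), 28 of 68 in XN4 (32.2%), 18 of 68 in XN1 (29.4%), and 13 of 55 in KN1 (19.4%). Requiring at least 2 reads gave 15 in CN4 (17.3% of all genes), 18 in XN4 (23.1%), 11 in XN1 (11.3%), and 11 in KN1 (14.2%), and thinning to 3200 reads gave 17 in XN4 and 19 in CN4. Without thinning, and with dividing cells called on all reads, the genes higher in dividing cells were 34 in XN4, 29 in CN4, 24 in KN1, and 22 in XN1. Pairs captured together above expectation numbered 26 in XN4, 18 in CN4, 10 in XN1, and 2 in KN1 without the strata of like depth, 2 of 24 in XN1 with strata of genes detected (1 of 24 with strata of depth), and 4 of 14 in CN4 with at least 2 reads (7 of 31 with at least 1 read). The cause of these changes was not tested. No paired analysis was possible because each line is 1 library, and no replicate could be left out. Depth limits the genes under 1% of cells, which were left out of the counts.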
